A study of Rattus norvegicus with 18 samples.

Results

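Collagen IV, laminins and nidogens build the basement membrane, the sheet of extracellular matrix under tubular epithelium, around capillaries and in the filter of the glomerulus. Col4a1, Col4a2, Col4a3, Col4a4, Col4a5, Lama5, Lamb1, Lamc1, Nid1 and Nid2 were taken from the deposited gene table by gene name, and 9 of these 10 names were found. The table lists 30957 genes, and 22014 of them had counts in 1 or more libraries. No row is named Col4a3. The name LOC100911572 is held by 2 rows, of which the one with more counts is used throughout and the other is not reported here. The row used, described in the table as a collagen alpha-3(IV) chain-like gene, is shown beside the members and is not counted among them. Whether it stands for Col4a3 was not tested.

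The study followed rat kidneys after ligation of the left ureter, a model of obstructive nephropathy in which urine backs up and the kidney scars. RNA of renal parenchyma, enriched for poly(A), was sequenced from 15 libraries taken after 1, 3 or 7 days of ligation, 5 for each duration, and from 3 libraries labelled 14 days. All of these kidneys were obstructed, and all of the rats had ketamine anaesthesia and laparotomy. The sham group was not analysed here, so each comparison is between durations and none is with an unobstructed kidney. The sources used here give no strain, sex or age. The labels do not say that every library came from its own rat, so p-values reflect the spread between libraries, and part of that spread may be technical.

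In basement membranes collagen IV chains wind into trimers that join end to end into a network. The trimer of Col4a1 and Col4a2 chains is found in nearly every basement membrane, whereas the trimer of Col4a3, Col4a4 and Col4a5 chains is the mature form in the glomerulus and parts of the tubule. Laminins are cross-shaped trimers of an alpha, a beta and a gamma chain that cells bind through integrins and dystroglycan, and nidogens bind both laminin and collagen IV.

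Library totals ran between 5488540 and 12049915 counts, and the found members had between 340 and 15771 counts in a library. The libraries labelled 14 days stood apart. The summed FPKM (fragments scaled to gene length and library total) of the 3 tubular injury genes Havcr1, Lcn2 and Spp1 was 6459.5 to 8977 at 1 day, 6878 to 17655 at 3 days, 9327 to 13454 at 7 days and 50.3 to 269.6 in the libraries labelled 14 days. Spp1 made up most of this sum. At 1 day Havcr1 was at 640 to 1040 FPKM, Lcn2 at 128 to 375 FPKM and Spp1 at 5641 to 7993 FPKM. At 7 days Havcr1 was at 258 to 505 FPKM, Lcn2 at 101 to 428 FPKM and Spp1 at 8675 to 12750 FPKM. The 9 fibroblast and mural markers summed to 86.3 to 639 FPKM in the 3 libraries labelled 14 days and to 483 to 739 FPKM at 7 days. Genes of this list went both ways. Acta2 was at 292, 48.3 and 255 FPKM in these 3 libraries and at 83.4 to 143 FPKM at 7 days. Col1a1 was at 10.9, 1.83 and 26.1 FPKM in them and at 78.7 to 113 FPKM at 7 days. Adipocyte markers summed to 56.0, 41.1 and 386 FPKM in the libraries labelled 14 days. At 1, 3 and 7 days they summed to 10.2 to 20.8, 6.64 to 12.0 and 11.9 to 16.5 FPKM. In replicate 2 of 14 days the sum was mostly Cidec (37.4 FPKM). There Adipoq (3.65 FPKM), Plin1 (0 FPKM) and Lep (0.0541 FPKM) lay within the range of the early libraries. Whether the labels and tissue of the libraries labelled 14 days are right was not tested. Mitochondrial transcripts made up 14.4 to 27.4% of counts in those 3 libraries and 7.11 to 13.6% in the other 15. The 3 also differed from each other: replicates 1 and 3 had a collecting duct marker sum of 1378 and 1247.5 FPKM, and replicate 2 had 333 FPKM with 2671.5 FPKM of loop and distal tubule markers. Aqp2 and Aqp3 carried most of the collecting duct sum in replicates 1 and 3. In replicate 3 Hsd11b2, Atp6v1g3 and Scnn1g of that list were lowest of the 18 libraries (2.50, 1.81 and 0.305 FPKM). In replicate 2 Umod was at 2269.7 FPKM, and Umod, Slc12a1 and Kcnj1 exceeded every library of 1, 3 and 7 days. Slc12a3 and Calb1 (76.5 and 21.9 FPKM) lay within the range of those libraries. Which segments these sums stand for was not tested. At 1 day, replicate 5 stood apart, with a collecting duct marker sum of 992 FPKM and an endothelial sum of 270.1 FPKM. Its collecting duct sum was also mostly Aqp2 and Aqp3. For these reasons the 3 early durations were fitted without the libraries labelled 14 days, a choice made with earlier results of these data known; it calls more genes than a fit of all 18 libraries, whose values are given beside the calls of members, and of genes named in 7 versus 1 day, that it ends. Proximal tubule markers summed to 184 to 2449.8 FPKM over the 18 libraries. In bulk tissue fewer cells of a type and less RNA per cell cannot be told apart.

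The Col4a1 and Col4a4 genes each lie head to head with a partner chain on the rat genome, and sequence near the starts is shown because the chains of each pair are described together here. In RefSeq (build GRCr8) the starts of Col4a2, on the minus strand, and Col4a1, on the plus strand, are 77 bases apart, and those of Col4a4 and Col4a3 are 413 bases apart. Of 16624 minus-strand starts in the promoter table, 1572 had a plus-strand start within 500 bases. The 76 bases between the Col4a2 and Col4a1 starts, chr16:84885521-84885596 on the plus strand, are 78.9% G or C. The 250 bases before the Col4a3 start, chr9:91323740-91323989 on the plus strand, are 62.0% G or C. Capitals mark the GC box, searched as GGGCGG on both strands.
Col4a2 to Col4a1: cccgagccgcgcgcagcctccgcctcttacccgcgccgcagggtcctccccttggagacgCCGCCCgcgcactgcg
Upstream of Col4a3: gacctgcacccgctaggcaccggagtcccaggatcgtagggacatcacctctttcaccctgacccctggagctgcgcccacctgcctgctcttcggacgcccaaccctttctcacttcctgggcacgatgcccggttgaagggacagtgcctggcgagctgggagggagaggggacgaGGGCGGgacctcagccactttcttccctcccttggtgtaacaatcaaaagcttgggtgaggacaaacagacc

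Each of these 2 stretches holds 1 GC box. Over the full promoter windows (250 bases before to 50 after the start), the Col4a4 window held 0 GC boxes, Lamc1 held 5 and Lama5 held 4. A GC box was present in 33.1% of 33469 RefSeq promoters, a CCAAT box (CCAAT) in 37.5% and a TATA box (TATAAA) in 14.2%, each searched on both strands. None of the 9 member windows in the table (Nid2 is not among them) held TATAAA, and Col4a1, Col4a2 and Nid1 held CCAAT. In the deposited table, which names no build, the starts of Col4a2 and Col4a1 are 83601 bases apart and those of Col4a4 and LOC100911572 are 374 bases apart. No member overlaps another gene there.

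The collagen IV chains of the widespread network were the members with the highest FPKM at 1, 3 and 7 days and the ones called between 7 and 3 days. Col4a1 was at 281 ± 40.2 FPKM at 7 days, against 140.2 ± 21.1 FPKM at 1 day, and Col4a2 was at 137 ± 25.1 FPKM at 7 days, against 69.1 ± 11.3 FPKM at 1 day (mean ± SD, n = 5 each). Levels at 3 days were close to those at 1 day, with 146 ± 11.3 FPKM for Col4a1 and 71.3 ± 9.02 FPKM for Col4a2 (n = 5). Lamb1 and Col4a5 were also higher at 7 days than at 1 day, while Lama5 and Lamc1 did not pass the test in any comparison of these durations.

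Col4a1 (ENSRNOG00000016281, chromosome 16, 83522162 to 83632153, plus strand, as deposited) had 152, 107, 159, 151 and 132 FPKM at 1 day, 154, 152, 139, 154 and 129 FPKM at 3 days, and 265, 349, 253, 253 and 285 FPKM at 7 days. Every 7-day library was above every library of the earlier durations, and 1-day and 3-day libraries overlapped. Col4a2 (ENSRNOG00000023972, chromosome 16, 83387364 to 83438561, minus strand) had 78.2, 49.9, 76.3, 71.6 and 69.4 FPKM at 1 day, 86.9, 70.0, 63.7, 67.9 and 68.0 FPKM at 3 days, and 121, 181, 124, 122 and 139 FPKM at 7 days. It had the same order, with no overlap between 7 days and the earlier durations.

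**Figure D1:**
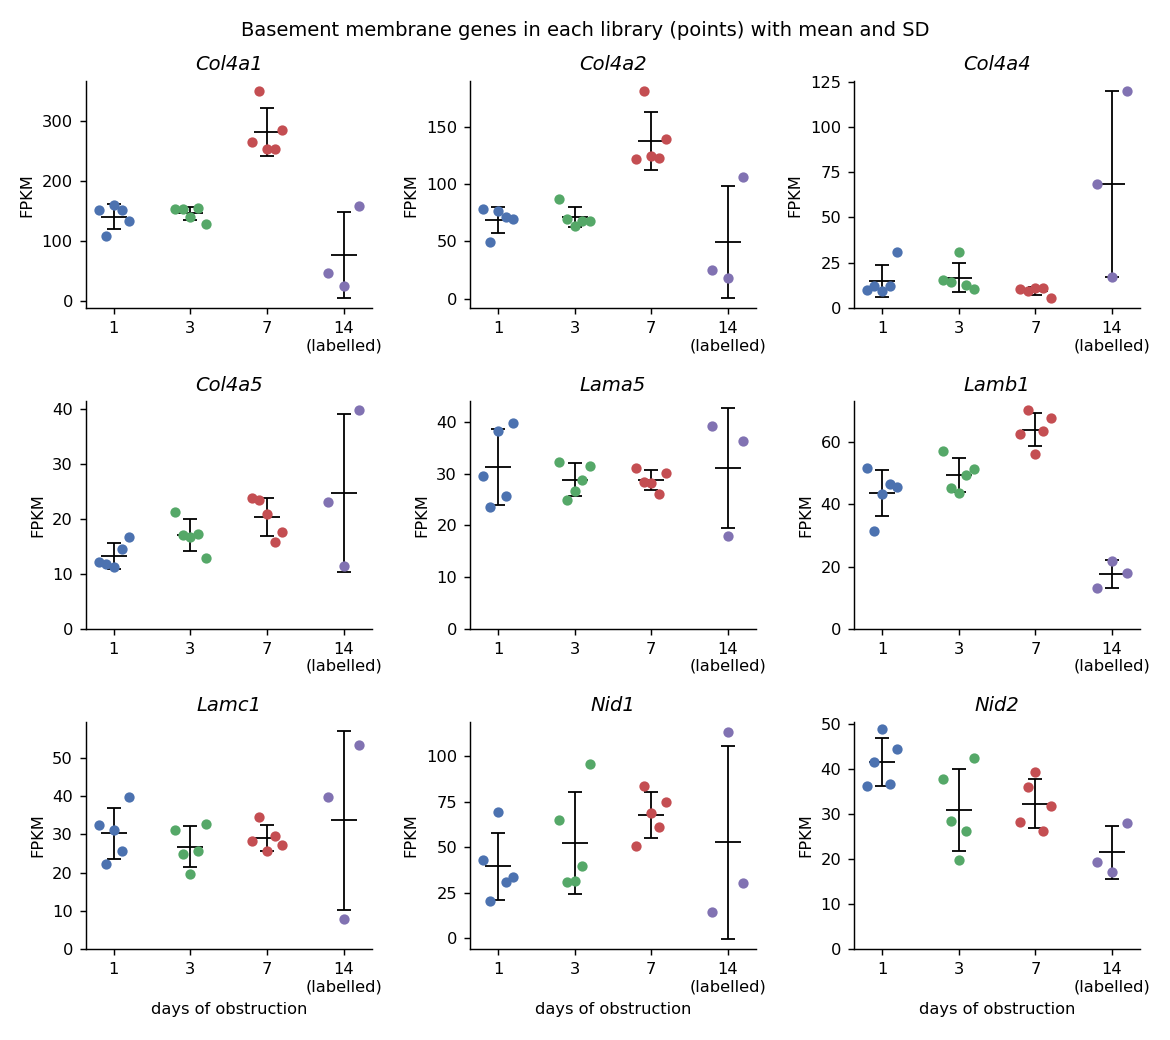
FPKM of the 9 found members (vertical axes) at 1, 3, 7 and labelled 14 days of obstruction (horizontal axes), with each point a library and the bars the mean and SD. Col4a1 at 7 days lies between 253 and 349 FPKM, above all libraries of 1 and 3 days, and the 3 libraries labelled 14 days are widely spread for most members.

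Between 7 and 3 days, 1108 of 13991 genes were called (edgeR quasi-likelihood test, Benjamini-Hochberg adjusted p under 0.05), which is 7.92% of genes, with 664 higher and 444 lower. Of the 9 members, 2 were called, both higher: Col4a1 by a log2 fold change of 0.88 ± 0.12 (SE; adjusted p = 0.00138, edgeR) and Col4a2 by 0.88 ± 0.13 (adjusted p = 0.00269, edgeR). Over all genes 4.75% were called higher. These were also the 2 members whose 7-day libraries all lay above the 3-day libraries, as did 7.13% of all genes. The median log2 fold change was 0.18 over members and -0.01 over all genes. With all 18 libraries in the fit neither was called (log2 fold change 0.88 each, adjusted p = 0.117 for Col4a1 and 0.128 for Col4a2, edgeR), and on FPKM with limma the called genes split as 925 higher and 198 lower. Lamb1, the beta chain of the ubiquitous laminins, had a log2 fold change of 0.30 ± 0.11 (adjusted p = 0.086, edgeR) and passed with DESeq2 (adjusted p = 0.0318).

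Between 3 days and 1 day, 1463 genes (10.5% of 13991) were called with 738 higher and 725 lower (747 and 459 on FPKM with limma), and 0 of the 9 members were among them; at an unadjusted p under 0.05 there were 3899 genes. The members nearest to the threshold were Nid2, with a log2 fold change of -0.46 ± 0.17 (adjusted p = 0.103, edgeR), and Col4a5, with 0.34 ± 0.14 (adjusted p = 0.132, edgeR). For Col4a1 the 95% interval of the log2 fold change was -0.19 to 0.26, and for Col4a2 -0.23 to 0.28. Without replicate 5 of 3 days Nid2 was called (log2 fold change -0.60, adjusted p = 0.0345, edgeR).

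Between 7 days and 1 day, the widest span of the early series, 4 members were called and all 4 were higher, against a background of 38.2% of genes called in either direction, 18.0% called higher and 20.2% called lower. In 3 of them, Col4a1, Col4a2 and Lamb1, every 7-day library lay above every 1-day library, as in 14.6% of all genes. The median log2 fold change was 0.46 over the 9 members and -0.01 over all genes. Col4a1 rose by 0.91 ± 0.12 (adjusted p = 7.88e-05) and Col4a2 by 0.90 ± 0.13 (adjusted p = 0.000182) on the log2 scale, by edgeR. Lamb1 rose by 0.46 ± 0.11 (adjusted p = 0.00389, edgeR) and Col4a5, the chain shared by the glomerular trimer and other networks, by 0.52 ± 0.14 (adjusted p = 0.00951, edgeR). The gene split was 2518 higher and 2833 lower, and on log2(FPKM + 1) with limma it was 3336 higher and 1921 lower; the 4 members were higher under both. With all 18 libraries in the fit Col4a5 was no longer called (log2 fold change 0.53, adjusted p = 0.0562, edgeR), and the other 3 were. These comparisons share libraries with each other.

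**Figure D2:**
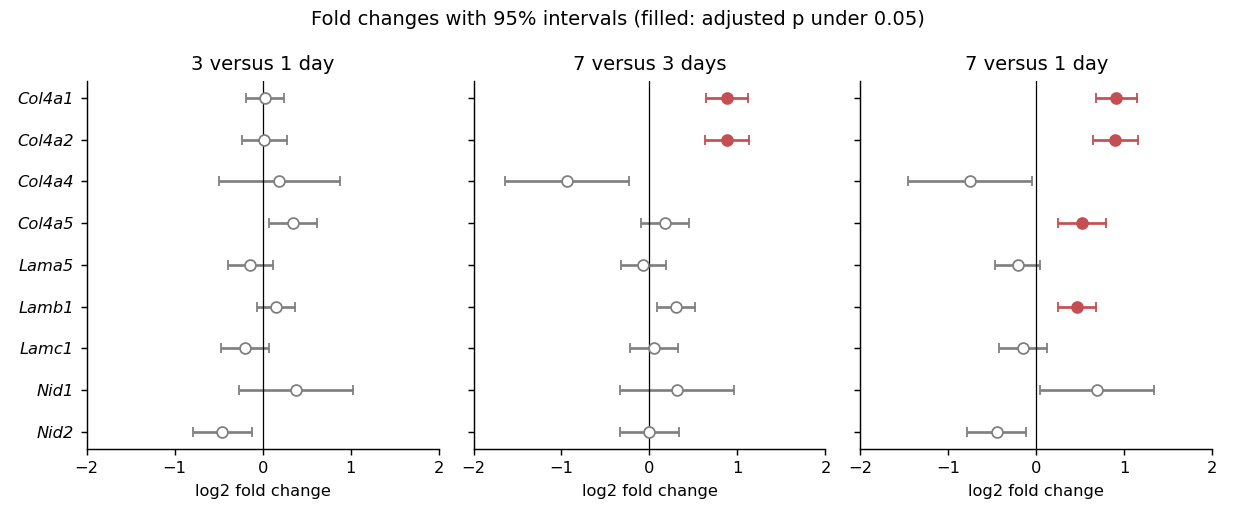
Log2 fold changes (horizontal axes) of the 9 found members, from edgeR, with 95% intervals, for 3 versus 1 day, 7 versus 3 days and 7 versus 1 day; filled points have an adjusted p under 0.05. Col4a1 and Col4a2 sit at 0.88 in 7 versus 3 days and at 0.91 and 0.90 in 7 versus 1 day, while Lama5 and Lamc1 lie near 0 in all 3 panels.

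The laminin members did not move together. Lamb1 (ENSRNOG00000005678) had 51.5, 31.5, 43.4, 46.5 and 45.6 FPKM at 1 day, 57.2, 45.3, 43.7, 49.6 and 51.5 FPKM at 3 days, and 62.6, 70.2, 56.0, 63.6 and 67.7 FPKM at 7 days. All 7-day libraries were above all 1-day libraries. Lama5, the alpha chain of the laminins of mature kidney, ranged from 26.0 to 31.0 FPKM at 7 days, within the 23.5 to 39.7 FPKM of 1 day, with a log2 fold change of -0.21 (95% interval -0.46 to 0.04). Lamc1, the gamma chain of most laminins, ranged from 25.6 to 34.4 FPKM at 7 days and from 22.2 to 39.6 FPKM at 1 day, with a log2 fold change of -0.15 (95% interval -0.43 to 0.13). Changes within these intervals cannot be told from 0 here.

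The nidogens also differed. Nid1 had 42.9, 20.4, 69.3, 31.2 and 33.8 FPKM at 1 day, 65.1, 30.8, 31.3, 39.6 and 95.9 FPKM at 3 days, and 51.0, 83.7, 68.7, 61.3 and 74.9 FPKM at 7 days. The groups overlapped through replicate 3 of 1 day, the log2 fold change of 7 versus 1 day was 0.69 ± 0.33 (adjusted p = 0.116, edgeR), and without that library it was 0.99 (adjusted p = 0.0273, edgeR). Nid2 had 36.1, 41.5, 48.7, 36.6 and 44.4 FPKM at 1 day, 37.6, 28.4, 19.8, 26.2 and 42.3 FPKM at 3 days, and 28.3, 36.0, 39.2, 26.2 and 31.8 FPKM at 7 days. Its libraries overlapped, and its log2 fold change of 7 versus 1 day was -0.45 ± 0.17 (adjusted p = 0.0523, edgeR), which passed with DESeq2 (adjusted p = 0.0371).

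Col4a4 and Col4a5 are chains of the glomerular trimer. Col4a4 (ENSRNOG00000014851, chromosome 9, 88232455 to 88357182, minus strand) had 10.0, 12.1, 9.49, 11.9 and 30.9 FPKM at 1 day, 15.4, 14.6, 31.0, 12.7 and 10.5 FPKM at 3 days, and 10.4, 9.17, 10.8, 10.9 and 5.46 FPKM at 7 days. Replicate 5 of 1 day and replicate 3 of 3 days were high, and the groups overlapped. Its log2 fold change of 7 versus 1 day was -0.75 ± 0.36 (adjusted p = 0.107, edgeR), and -0.33 (adjusted p = 0.384, edgeR) without replicate 5 of 1 day. In 7 versus 3 days it was -0.94 ± 0.36 (adjusted p = 0.107, edgeR), which was called without replicate 5 of 1 day (-0.94, adjusted p = 0.0391, edgeR). That library had 371 FPKM of the collecting duct gene Aqp2 and 4.56 FPKM of the podocyte gene Nphs1, while replicate 3 of 3 days had 40.2 FPKM of Aqp2 and 19.0 FPKM of Nphs1; the part of these cell types was not tested.

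Col4a5 had 12.1, 11.8, 11.2, 14.5 and 16.8 FPKM at 1 day, 21.2, 17.0, 16.7, 17.3 and 12.9 FPKM at 3 days, and 23.7, 23.4, 20.8, 15.8 and 17.6 FPKM at 7 days. The 1-day and 7-day libraries overlapped through replicate 5 of 1 day and replicate 4 of 7 days. LOC100911572 had 3.29, 3.99, 3.11, 3.77 and 12.3 FPKM at 1 day, 4.90, 3.26, 11.0, 3.72 and 2.41 FPKM at 3 days, and 2.21, 2.92, 2.51, 2.35 and 1.80 FPKM at 7 days. The row was high in the same 2 libraries as Col4a4. Its log2 fold change of 7 versus 1 day was -1.25 ± 0.44 (adjusted p = 0.0373, edgeR), and -0.69 (adjusted p = 0.144, edgeR) without replicate 5 of 1 day. The call was also lost with all 18 libraries (-1.23, adjusted p = 0.0684, edgeR), with replicate number as a block (adjusted p = 0.0758, edgeR), on log2(FPKM + 1) with limma (-0.75, adjusted p = 0.0895), and without replicate 1, 3, 4 or 5 of 7 days (adjusted p = 0.0593 to 0.0832, edgeR).

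In order of level at 7 days, the members stood at 281 FPKM (Col4a1), 137 FPKM (Col4a2), 67.9 FPKM (Nid1), 64.0 FPKM (Lamb1), 32.3 FPKM (Nid2), 29.0 FPKM (Lamc1), 28.8 FPKM (Lama5), 20.3 FPKM (Col4a5) and 9.35 FPKM (Col4a4). Nid1 and Lamb1 overlapped in their libraries, as did Nid2, Lamc1 and Lama5, whereas the other neighbours in this order did not. FPKM is per length, with a single length per gene in the deposited values.

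Ratios within a library need no scaling between libraries. The ratio of Col4a1 to Col4a2 lay between 1.93 and 2.18 at 7 days and between 1.91 and 2.15 at 1 day, and its log2 value differed by 0.01 (two-sided exact permutation test, p = 0.802, 5 libraries a group). The ratio of Col4a1 to Col4a4 lay between 23.3 and 52.3 at 7 days and between 4.28 and 16.8 at 1 day. The log2 difference was 1.56 (two-sided exact permutation test, p = 0.00794, the smallest this design allows; adjusted over the 4 ratios, 0.0106). Lamb1 to Lama5 was 1.98 to 2.47 at 7 days and 1.13 to 1.81 at 1 day, with a log2 difference of 0.66, and Nid2 to Nid1 was 0.424 to 0.570 at 7 days and 0.703 to 2.03 at 1 day, with a log2 difference of -1.25; both had the same exact permutation p and adjusted p. These 4 ratios were chosen with earlier results known, and Col4a4 replaced Col4a3 after the table was seen. A ratio shows unequal change, not that either gene was steady. Of the summed FPKM of the found collagen IV members, Col4a1 and Col4a2 made up 93.3 ± 1.25% at 7 days, against 88.0 ± 4.47% at 1 day (n = 5 each).

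**Figure D3:**
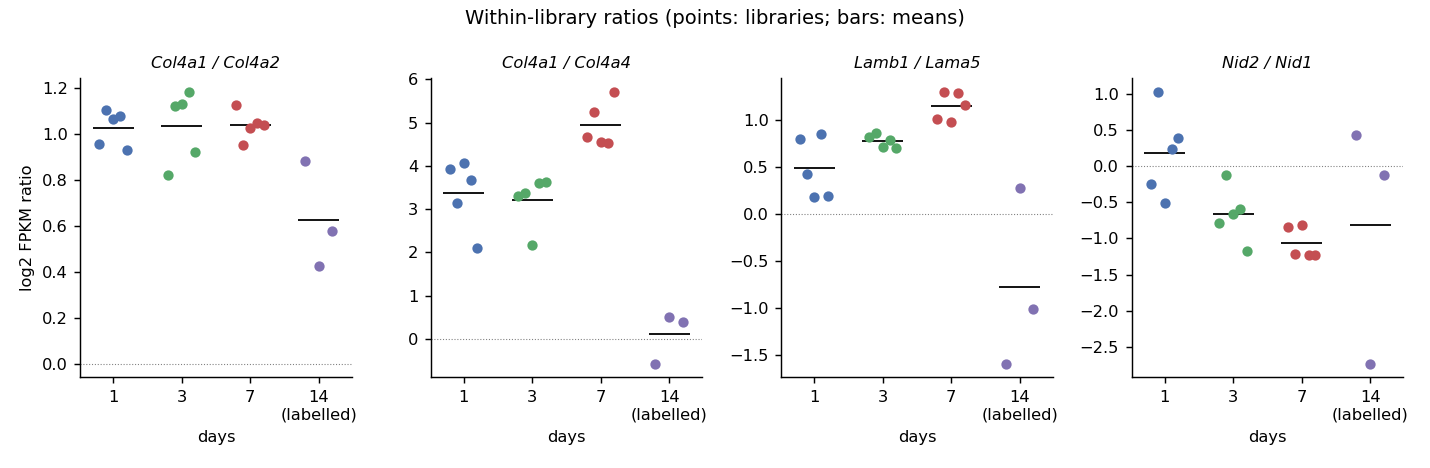
Log2 FPKM ratios of member pairs within each library (vertical axes) at 1, 3, 7 and labelled 14 days (horizontal axes); points are libraries and bars are means. Col4a1 to Col4a2 stays near 1 at 1, 3 and 7 days, while Col4a1 to Col4a4 averages 4.94 at 7 days against 3.38 at 1 day.

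Over the 15 early libraries the Pearson correlation of log2(CPM + 1) (CPM: counts scaled to the library total with TMM factors) was 0.98 for Col4a1 and Col4a2, 0.83 for Col4a1 and Lamb1, and 0.94 for Col4a4 and LOC100911572. These are descriptions across libraries that share durations and depth, with no test. For genes alike in pattern, 13198 tested genes with a mean FPKM of at least 1 over those 15 libraries were used, and the members among them were not ranked. Those most alike to Col4a1 included Gucy1b3 (r = 0.961), Pcdh18 (0.942), Gucy1a3 (0.937) and Il24 (0.936). Most alike to Col4a4 were LOC100911572 (r = 0.941), Cgn (0.885), Casz1 (0.862), RGD1561034 (0.856) and Zfp949 (0.856).

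**Figure D4:**
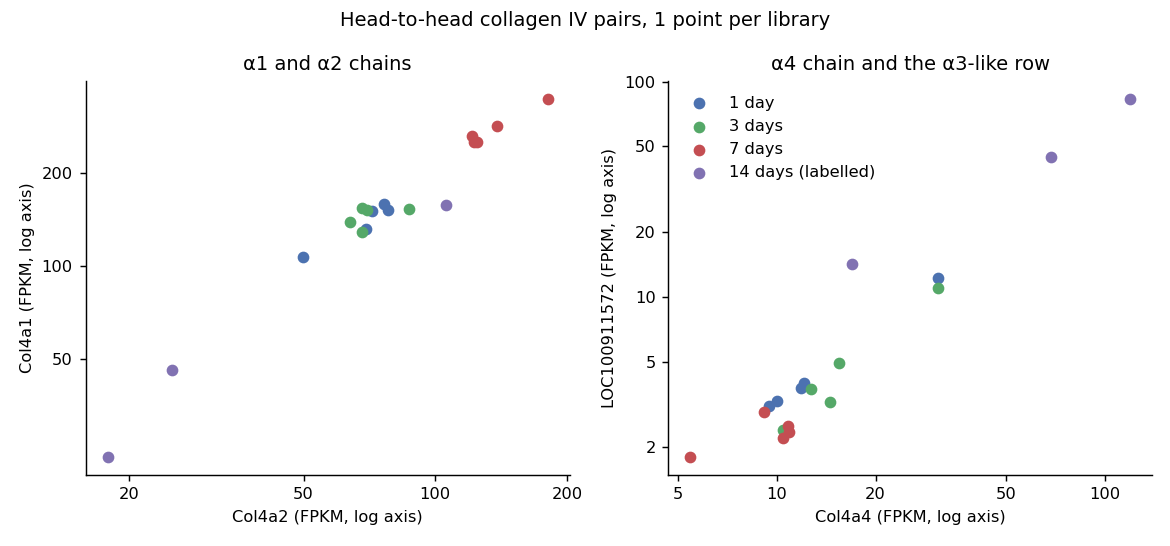
FPKM of Col4a1 against Col4a2 (left) and of LOC100911572 against Col4a4 (right) on log axes, 1 point per library, coloured by duration. The 5 libraries of 7 days lie at the top right for Col4a1 and Col4a2, and replicate 5 of 1 day (30.9 and 12.3 FPKM) and replicate 3 of 3 days (31.0 and 11.0 FPKM) stand above the other early libraries at right.

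Markers of other cells moved over the same span. The 9 fibroblast and mural markers summed to 483 to 739 FPKM at 7 days and 144 to 228 FPKM at 1 day, with Col1a2 listed at 0 in all 18 libraries. The 7 endothelial markers found of 8 summed to 94.0 to 184 FPKM at 7 days and 60.4 to 270.1 FPKM at 1 day. Only replicate 5 of 1 day overlapped the 7-day libraries, and the other 1-day libraries ran from 60.4 to 93.5 FPKM. Leukocyte markers (5 of 5 found) summed to 649 to 3133 FPKM at 7 days and 224 to 499 FPKM at 1 day, and podocyte markers (7 of 7) to 73.9 to 223 FPKM at 7 days and 88.9 to 144 FPKM at 1 day. Their part in the members' changes was not tested.

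Other genes of the basement membrane were counted from lists chosen with earlier results known. Among 9 other collagen IV and laminin chains, 4 rose and 3 fell in 7 versus 1 day, with a median log2 fold change of 0.31 against -0.01 for all genes. Over all genes 18.0% were called higher and 20.2% lower in this comparison. Lama2, the alpha chain of laminins of muscle and mesenchyme, rose by 1.39 ± 0.20 (adjusted p = 0.000162, edgeR), with 2.91 to 4.82 FPKM at 7 days against 0.919 to 1.90 FPKM at 1 day. Lamc3 rose by 1.29 ± 0.33 (adjusted p = 0.00692, edgeR), at 2.70 to 6.56 FPKM at 7 days against 0.755 to 2.04 FPKM at 1 day. Lamb3 and Lama3, chains of an anchoring laminin of epithelia, were lower. Lamb3 fell by 2.91 ± 0.38 on the log2 scale (adjusted p = 9.53e-05, edgeR), at 3.02 to 5.15 FPKM at 7 days against 11.3 to 44.5 FPKM at 1 day, and Lama3 fell by 2.25 ± 0.49 (adjusted p = 0.00263, edgeR). Lama3 overlapped between the groups, at 0.711 to 1.79 FPKM at 7 days against 1.35 to 13.0 FPKM at 1 day, and without replicate 5 of 1 day its log2 fold change was -1.51 (adjusted p = 0.00276, edgeR). Lamb2, the beta chain of the mature glomerulus, rose by 0.31 ± 0.10 (adjusted p = 0.0293, edgeR), which was not called with all 18 libraries (adjusted p = 0.168, edgeR). Its call was also lost with no low-count filter (adjusted p = 0.0508, edgeR) and with the 2 groups alone (adjusted p = 0.0567, edgeR). It was lost too without replicate 1, 2, 3 or 4 of 1 day or replicate 4 of 7 days (adjusted p = 0.0651 to 0.0761, edgeR).

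Of 16 tested proteoglycans and associated proteins, 5 rose and 0 fell, with a median of 0.54, against 18.0% of all genes called higher and 20.2% lower. Sparc, a collagen-binding matricellular protein, had a log2 fold change of 1.83 ± 0.13 (adjusted p = 1.94e-06, edgeR), at 502 to 696 FPKM at 7 days and 139 to 193 FPKM at 1 day. Smoc2 rose by 2.87 ± 0.43 (adjusted p = 0.000206, edgeR) at a low level, with 2.49 to 9.17 FPKM at 7 days against 0.568 to 1.49 FPKM at 1 day. Egflam, Hmcn1 and Ntn4 rose by 1.22, 1.57 and 0.83 on the log2 scale (adjusted p = 0.00109, 0.00284 and 0.00339, edgeR). The first 2 were at low levels. Egflam was at 1.87 to 3.94 FPKM at 7 days against 0.699 to 1.49 FPKM at 1 day. Hmcn1 was at 0.463 to 0.869 FPKM against 0.121 to 0.318 FPKM, and Ntn4 at 17.0 to 26.0 FPKM against 9.91 to 14.8 FPKM. Col18a1, which encodes a basement membrane proteoglycan core, had a log2 fold change of -0.01 ± 0.10.

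Of 16 tested genes of collagen synthesis, export and crosslinking, 6 rose and 4 fell, with a median of 0.17. The shares of all genes called higher and lower were 18.0% and 20.2%. P3h3, a prolyl hydroxylase family member, rose by 0.94 ± 0.14 (adjusted p = 0.000257, edgeR), Crtap by 0.60 ± 0.12 (adjusted p = 0.00126, edgeR) and Plod2, a lysyl hydroxylase, by 1.51 ± 0.29 (adjusted p = 0.00111, edgeR). P4hb, the protein disulfide isomerase subunit of prolyl hydroxylase, fell by 0.72 ± 0.11 (adjusted p = 0.000257, edgeR). Loxl2, a lysyl oxidase that crosslinks collagen IV, rose by 1.32 ± 0.30 (adjusted p = 0.00332, edgeR), which was not called with all 18 libraries (adjusted p = 0.0591, edgeR). Plod3, another lysyl hydroxylase, fell by 0.36 ± 0.09 (adjusted p = 0.00445, edgeR), which was not called with all 18 libraries (adjusted p = 0.134, edgeR). Serpinh1, the collagen chaperone, was not called in 7 versus 1 day (log2 fold change 0.18 ± 0.13) and was called higher in 7 versus 3 days (0.46 ± 0.13, adjusted p = 0.0411, edgeR).

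Of 10 receptors of basement membrane, 0 rose and 2 fell, against 20.2% of all genes called lower, with a median of -0.07. Itga1, the collagen-binding integrin subunit, had a log2 fold change of -1.93 ± 0.33 (adjusted p = 0.000561, edgeR), at 7.56 to 23.4 FPKM at 7 days against 25.4 to 64.0 FPKM at 1 day. Itga2 had -2.67 ± 0.90, which rested on replicate 5 of 1 day (-0.17, adjusted p = 0.698, edgeR, without it) and was not called with all 18 libraries (-2.65, adjusted p = 0.0723, edgeR). Of 6 proteases, 2 rose and 0 fell, with a median of 0.49, against 18.0% of all genes called higher and 20.2% lower. Mmp2, a gelatinase that cleaves collagen IV, rose by 2.41 ± 0.25 (adjusted p = 2.57e-05, edgeR) and Mmp14, its activator, by 0.67 ± 0.10 (adjusted p = 0.000267, edgeR). Between 7 and 3 days, 4 of the 6 proteases and 6 of the 16 genes of collagen synthesis, export and crosslinking were called higher and 0 lower, against 4.75% of all genes called higher. In the same comparison 2 of the 16 proteoglycans and associated proteins were higher and 0 lower, 1 of the 9 other chains was higher and 1 lower, and 0 of the 10 receptors were called.

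**Figure D5:**
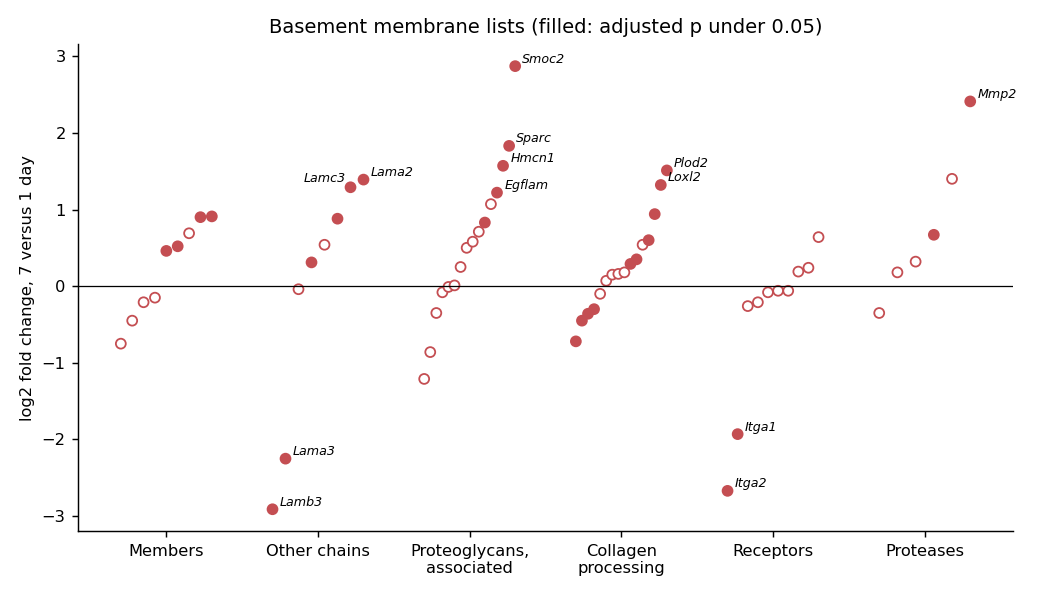
Log2 fold changes of 7 versus 1 day (vertical axis) of the 9 found members and of the 5 basement membrane lists, 1 point per gene reported, in order of value within each list; filled points have an adjusted p under 0.05. Smoc2, at 2.87, is the highest and Lamb3, at -2.91, the lowest.

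The libraries labelled 14 days were compared with 7 days in a fit of all 18 libraries, with the limits stated above: 5560 of 14511 genes (38.3%) were called, 3102 higher and 2458 lower, and on log2(FPKM + 1) with limma 954 higher and 4894 lower, where the median gene shifted by -0.26. Of the 9 members, 1 was higher (21.4% of all genes) and 3 were lower (16.9% of all genes), and these 4 were the members whose libraries did not overlap (29.5% of all genes). Col4a1 stood at 46.0, 23.9 and 158 FPKM in the libraries labelled 14 days, all below every 7-day library, with a log2 fold change of -1.69 ± 0.35 (adjusted p = 0.00161, edgeR), between -2.63 (without replicate 3 of 14 days) and -1.31 with a library left out. Col4a2 stood at 25.0, 17.8 and 106 FPKM, with -1.27 ± 0.36 (adjusted p = 0.0105, edgeR). Its call was lost with the 2 groups alone (-1.25, adjusted p = 0.0974, edgeR) and without replicate 1 of 14 days (-0.97, adjusted p = 0.0547, edgeR). Without replicate 3 its log2 fold change was -2.28. Lamb1 stood at 13.0, 21.7 and 18.1 FPKM, with -1.50 ± 0.20 (adjusted p = 6.9e-05, edgeR).

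Col4a4 was higher, at 68.4, 16.9 and 119.6 FPKM in the libraries labelled 14 days against 5.46 to 10.9 FPKM at 7 days, with a log2 fold change of 3.07 ± 0.48 (adjusted p = 0.000222, edgeR). LOC100911572 stood at 44.6, 14.2 and 83.1 FPKM against 1.80 to 2.92 FPKM at 7 days, with 4.53 ± 0.56 (adjusted p = 3.41e-05, edgeR). In the highest of the 3 libraries, replicate 3, the podocyte gene Nphs1 was at 0.134 FPKM and the collecting duct gene Aqp2 at 776.9 FPKM; the part of these cell types was not tested. Without replicate 2 the members called numbered 8, where 50.2% of 14852 genes were called: Col4a5, Lama5 and Lamc1 were then higher (log2 fold change 0.81, 0.58 and 0.87), and Nid1 was lower (-1.43, adjusted p = 0.0221, edgeR) where with all 3 libraries it had 0.13 ± 0.57. Lamc1 had 39.7, 7.92 and 53.2 FPKM in the libraries labelled 14 days, and replicate 2 alone lay below the 7-day libraries. Col4a5 had 23.0, 11.3 and 39.8 FPKM and Lama5 had 39.2, 17.9 and 36.3 FPKM, again lowest in replicate 2. Nid1 had 14.4, 113 and 30.5 FPKM in those libraries, so that replicate 2 alone lay above the 7-day libraries, which ran from 51.0 to 83.7 FPKM. Nid2 had 19.3, 17.1 and 28.1 FPKM and was not called (log2 fold change -0.30 ± 0.20, adjusted p = 0.266, edgeR), although it passed on log2(FPKM + 1) with limma (-0.58, adjusted p = 0.0394). On that scale Lamc1 and Nid1 had log2 differences of -0.14 and -0.83, opposite in sign to the count fit, and neither passed.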

How the data were processed

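Members and gene lists were chosen with earlier results of these data known. The submitters' processing notes list fastp 0.19.7 (read trimming) and HISAT2 2.0.4 (alignment). How reads were counted, the strand setting, the gene models and the genome build: not given in the sources used here. For each library the authors deposited count and FPKM columns, per the file headers. FPKM equalled the count per single gene length and column total (8250 genes with at least 50 counts in every library, largest ratio of implied lengths 1.00002). Libraries were grouped by label, and 0 per-sample columns were left unmapped.

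Genes were kept by filterByExpr at a min.count of 10 and a min.total.count of 15. Counts were scaled by TMM and tested by the quasi-likelihood method of edgeR 4.0.16 under R 4.3.3, Benjamini-Hochberg adjusted over all tested genes. The 15 libraries of 1, 3 and 7 days were fitted together, and 14 versus 7 days used all 18. The test was checked on simulated counts. Alternatives used limma 3.58.1 on log2(FPKM + 1) and log2(FPKM + 0.1), DESeq2 1.42.0, RLE factors, no filter, no mitochondrial genes, other sets of libraries and each library left out. Ratios were tested by exact permutation over libraries. All 10 members were to be named in every comparison; of each list, up to 6 genes called in 7 versus 1 day, smallest p first, of which the text gives most (some genes are not reported here), with Col18a1 and Serpinh1 added after their values were seen. Deviations from group means correlated weakly between same-numbered libraries of the early durations (15 pairs, r between -0.22 and 0.17, 7 over 0.1). Different-numbered libraries had r between -0.40 and 0.37. Replicate numbers were not taken to pair libraries, although these values do not settle whether they do, and a fit with replicate number as a block is an alternative. Promoter windows came from RefSeq (GRCr8); the Col4a3 window was chosen for printing after the Col4a4 window was seen to hold none of the motifs.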

Additional observations from a re-analysis of the deposited data

Results flagged for a closer look

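In 30 groups of 5 libraries (9 members and LOC100911572 at 1, 3 and 7 days), 4 had a library far from the other 4, by Dixon's ratio of gap to range above 0.71; chance flags about 5% of groups. Col4a4 was at 30.9 FPKM in replicate 5 of 1 day and at 31.0 FPKM in replicate 3 of 3 days. LOC100911572 was at 12.3 FPKM in replicate 5 of 1 day, the same library. Col4a2 was at 86.9 FPKM in replicate 1 of 3 days. No explanation was tested for these values.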

How the results depend on the processing

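Of the log2 fold changes of members and named genes under all alternatives, 1405 kept direction and side of the threshold, 43 lost the call, 19 gained it and 26 changed sign. Of these, 25 did not pass the threshold, and 1 did: Nid1 in 14 versus 7 days, between -1.43 (without replicate 2 of 14 days) and 0.59 with a library left out. Nid1 was at -0.83 and -0.86, and Lamc1 at -0.14 and -0.17, in that comparison by limma on log2(FPKM + 1) and log2(FPKM + 0.1), and Nid1 at -0.07 with the replicate block. In 7 versus 3 days Lama5 was at 0.00 by limma and Nid2 at -0.01 with no filter on low counts, and with a library left out Nid2 ran from -0.11 to 0.15 and Lamc1 from -0.04 to 0.13. In 3 versus 1 day such ranges were -0.04 to 0.08 for Col4a1, -0.06 to 0.07 for Col4a2, -0.21 to 0.61 for Col4a4 and -0.61 to 0.51 for LOC100911572, and the log2 ratio of Col4a1 to Col4a2 in 7 versus 1 day ran from -0.01 to 0.03. The count of genes called in 3 versus 1 day was 2216 with DESeq2, 330 with all 18 libraries and 775 to 2016 with a library left out; in 7 versus 3 days it was 1963, 152 and 324 to 1772. Members called in 7 versus 3 days were 0 with all 18 libraries and 2 to 3 with a library left out (the third was Lamb1, higher, or Col4a4, lower), and in 3 versus 1 day 0 to 1. In 14 versus 7 days 3153 genes were called with the 2 groups alone, and 3 to 8 members with a library left out. With replicate number as a block, 1181, 828, 5034 and 4485 genes were called in 3 versus 1, 7 versus 3, 7 versus 1 and 14 versus 7 days, with 0, 2, 4 and 4 members. Under that block the ratios of Col4a1 to Col4a4, Lamb1 to Lama5 and Nid2 to Nid1 kept log2 differences of 1.56, 0.66 and -1.25, each with an adjusted p of 0.0833 by exact sign-flip permutation, whose smallest raw p with 5 pairs is 0.0625. The planned ratio of Col4a1 to Col4a3 was not run, since no row has that name. The causes were not tested. Choosing the 15-library fit with results known adds calls that the 18-library fit does not give.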
